A study of Homo sapiens with 12 samples.

Results

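The 8 genes described here make, store and take up the catecholamines dopamine, noradrenaline and adrenaline, the transmitters of the sympathetic lineage from which SH-SY5Y neuroblastoma cells derive. They were listed by name from the 20033 protein-coding genes of the GENCODE release 44 annotation. They comprise 4 synthesis enzymes (TH, DDC, DBH and PNMT), 2 transporters of the plasma membrane (SLC6A2 and SLC6A3) and 2 transporters of the vesicle membrane (SLC18A1 and SLC18A2). H3K27me3, trimethylation of histone H3 at lysine 27, was measured by chromatin immunoprecipitation with sequencing in 6 samples of cultured SH-SY5Y cells. Of these, 2 were Tau-expressing cells (WT), 2 were the Tau-KO line 231K and 2 were the Tau-KO line 232P. All groups were grown without any treatment given in the labels, each Tau-KO genotype was represented by a single line, and the replicates were biological duplicates for which the labels name no separate cultures, so that any p-value here measures the spread between these samples.

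Tyrosine hydroxylase (TH) carries out the rate-limiting step of catecholamine synthesis, turning tyrosine into L-DOPA. DOPA decarboxylase (DDC) then gives dopamine, dopamine beta-hydroxylase (DBH) turns dopamine into noradrenaline, and PNMT methylates noradrenaline to adrenaline. The vesicular monoamine transporters VMAT1 (SLC18A1) and VMAT2 (SLC18A2) load vesicles, and the noradrenaline transporter (SLC6A2) and the dopamine transporter (SLC6A3) take released transmitter back into the cell. H3K27me3 is written by polycomb repressive complex 2, commonly lies over genes that a cell lineage keeps silent, and often spreads over wide domains.

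Of the 8 genes, the dopamine transporter gene SLC6A3 was the only one with H3K27me3 peaks in all 6 samples. The vesicular transporter gene SLC18A2 held a single small peak in 2 samples. No peak of any sample lay in the gene, or within 5 kb on either side, for TH, DDC, DBH, PNMT, SLC6A2 and SLC18A1. Thus 12.5% of the members had a peak in this window in all 6 samples, against 19.7% of all protein-coding genes, and 75% had none in any sample, against 68.3% of all genes. A peak in some but not all samples was found for SLC18A2 and for 12% of all genes. With 8 members, these shares are near those of all genes. The deposited lists give peaks and not reads, so a gene without a peak had no region passing the peak caller's threshold, which is not the same as having no mark.

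The sequences below go with the member-by-member account. The first is a stretch of the SLC6A3 window that was inside a peak in all 6 samples, read from the forward strand of hg38. It lies near the end of the gene, 49226 to 49519 bp past the start site. The others are the 300 bases around the start sites of SLC18A2, the gene with small peaks just past its start, and of DBH, which was farthest from any peak in terms of the median over the samples, both on the forward strand and taken from RefSeq on GRCh38.p14. Capitals mark CG dinucleotides, the bases where DNA methylation is placed.
SLC6A3 near the gene end, chr5:1395921-1396214: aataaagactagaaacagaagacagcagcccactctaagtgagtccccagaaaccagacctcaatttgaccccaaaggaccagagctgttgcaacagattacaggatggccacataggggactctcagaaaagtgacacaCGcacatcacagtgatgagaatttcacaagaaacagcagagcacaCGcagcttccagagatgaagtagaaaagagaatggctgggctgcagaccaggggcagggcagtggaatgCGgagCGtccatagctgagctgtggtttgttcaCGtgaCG
SLC18A2 promoter, chr10:117240864-117241163: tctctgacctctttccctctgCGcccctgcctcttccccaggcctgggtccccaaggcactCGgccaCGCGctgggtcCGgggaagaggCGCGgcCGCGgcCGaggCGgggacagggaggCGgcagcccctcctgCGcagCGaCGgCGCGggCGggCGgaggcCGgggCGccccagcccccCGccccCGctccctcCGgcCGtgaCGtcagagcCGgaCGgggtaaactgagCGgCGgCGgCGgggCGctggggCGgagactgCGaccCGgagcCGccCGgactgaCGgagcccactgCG
DBH promoter, chr9:133636113-133636412: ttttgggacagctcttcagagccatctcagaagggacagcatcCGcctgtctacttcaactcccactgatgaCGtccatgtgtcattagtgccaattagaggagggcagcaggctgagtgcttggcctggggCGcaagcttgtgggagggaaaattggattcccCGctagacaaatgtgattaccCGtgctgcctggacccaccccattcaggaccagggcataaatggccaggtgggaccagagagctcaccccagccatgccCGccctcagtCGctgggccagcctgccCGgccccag

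These sequences differ widely in CG content. The SLC6A3 stretch near the gene end held 6 CG dinucleotides in 294 bases, or 2.04 per 100 bases. This was the highest of the stretches covered in all 6 samples, where the others held 0.619 to 1.79. The SLC18A2 promoter held 40 in 300 bases, more than 92.4% of the 35116 promoters of that length in the table, and the DBH promoter held 8, more than 39.3% of them, where the median was 14. The promoter table had entries for DDC, DBH and SLC18A2. Both DDC promoters held 3 CG dinucleotides. The letters TGACGTCA, the cyclic AMP response element, were searched on both strands and occurred in the SLC18A2 promoter, 48 bases before the start, and in 1.85% of all promoters. They did not occur in those of DBH or DDC. The letters GGGCGG, searched likewise, occurred in the promoters of DBH and SLC18A2 and in 45.0% of all, and TATAAA occurred in none of these members' promoters and in 11.5% of all.

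The 6 peak lists were of unequal length. WT held 285826 peaks in replicate 1 and 222191 in replicate 2, 231K held 271413 and 212347, and 232P held 147118 and 199677. The peaks covered 213.6 and 282.6 Mb in WT, 196.6 and 290.2 Mb in 231K, and 70.3 and 211.7 Mb in 232P. Every peak in both lists of the 232P samples bears a name that starts with 231P, which elsewhere denotes a separate Tau-KO line of SH-SY5Y cells. The groups here follow the labels, and the lists alone do not settle which line these samples came from. Among the lists, 232P replicate 1 stood apart with the shortest list and the least cover, and the comparison of cover at SLC6A3 is also given without it. The smallest peak was 175 to 179 bp wide in the 3 lists of replicate 1 and 240 to 262 bp wide in those of replicate 2. Peaks were shallow, with 5 reads at the lowest summit of every list and a median of 7 to 9 reads, so that a peak near the threshold rests on a handful of reads.

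The synthesis enzymes were considered first. TH (chr11:2163929-2171815, reverse strand) was free of peaks, with the nearest one 14516 to 20122 bp downstream of the gene, at IGF2 and INS-IGF2, in each of the 6 samples. These nearest peaks were weak and did not lie over the same bases in each sample. Their fold enrichment, the read depth at the summit over the local background with 1 added to each, was between 2.46 and 4.62. The peak-free interval around TH measured 76.0 to 96.4 kb. DDC (chr7:50458436-50565405, reverse strand) was likewise free, with a peak 55667 to 56766 bp downstream at IKZF1 in 4 samples and one about 30 kb downstream in 231K replicate 2 (30605 bp) and 232P replicate 1 (29810 bp). The local background estimate on chromosome 7 was 1.33 to 1.47 times that of all peaks in the 6 lists, where chromosomes of the other members gave 0.93 to 1.10. A higher background lowers the fold enrichment of the same number of reads, and its part in the free DDC window was not tested.

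DBH (chr9:133636363-133659329, forward strand) lay in a peak-free interval of at least 756 kb in every sample. The nearest peak was 322877 to 338751 bp upstream of the gene. PNMT (chr17:39667981-39670475, forward strand) had its nearest peak 58421 to 63902 bp upstream, at NEUROD2, a neuronal transcription factor gene. The fold enrichment of that peak was 2.58 and 3.54 in WT, 7.79 and 6.67 in 231K, and 3.97 and 2.65 in 232P. These are the peaks nearest to PNMT and not the same bases in each sample, and the peak of 231K replicate 1 was 2606 bp wide where that of WT replicate 1 was 239 bp wide.

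Among the other transporters, SLC6A2 (chr16:55655988-55707645, forward strand) was free of peaks with the widest scatter between samples. The nearest peak was 62765 bp downstream in WT replicate 1 and 108778 bp downstream in WT replicate 2. It was 109171 bp downstream in 231K replicate 1 and 110295 bp in 232P replicate 2, at CES1 as in WT replicate 2. In 231K replicate 2 and 232P replicate 1 no peak was called before MT1M, 925055 and 925208 bp downstream. The samples that lacked the nearer peaks were 1 of each Tau-KO line and of different replicate numbers. SLC18A1 (chromosome 8, reverse strand) was free in all samples, and its nearest peak lay 199030 to 203858 bp downstream, at the lipoprotein lipase gene LPL.

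**Figure D1:**
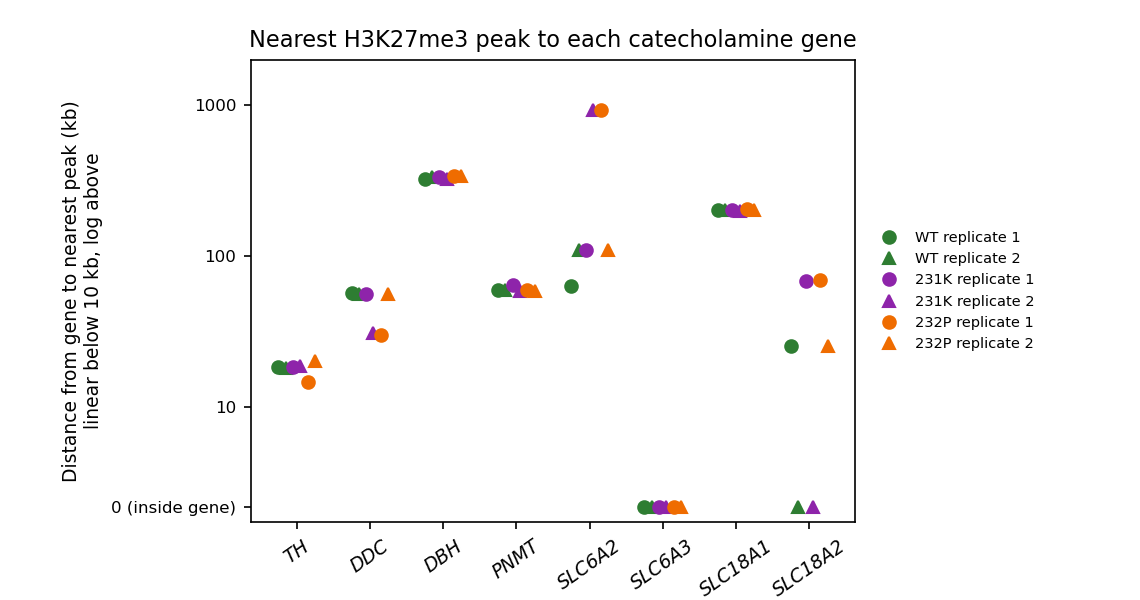
Distance in kb from each of the 8 genes to the nearest H3K27me3 peak (linear up to 10 kb and logarithmic above), with 1 point for each sample, coloured by genotype and shaped by replicate. SLC6A3 is at 0 in all 6 samples and SLC18A2 in 2, whereas DBH and SLC18A1 lie beyond 190 kb in every sample.

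The distances of the free genes fell on either side of that of a typical gene. The median over the 6 samples was 18.3 kb for TH, 55.7 kb for DDC, 59.1 kb for PNMT, 110 kb for SLC6A2, 202 kb for SLC18A1 and 336 kb for DBH. The median over all protein-coding genes was 112 kb. TH was nearer to a peak than most genes, with 30.3% of genes nearer still, whereas 71.5% of genes were nearer to a peak than DBH. In the plot of distances, the 6 samples stayed close together for TH, DBH, PNMT and SLC18A1, while those of SLC6A2 and SLC18A2 were spread out.

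SLC18A2 (chr10:117241093-117279430, forward strand) was marked weakly and in 2 samples. WT replicate 2 had a peak at chr10:117242276-117242662, 387 bp wide and 1162 to 1548 bp past the start site, with 9 reads at its summit, a fold enrichment of 4.20 and a q-value of 0.000184. The peak of 231K replicate 2 lay at chr10:117242682-117243139, 458 bp wide and 1568 to 2025 bp past the start, with 7 reads, a fold enrichment of 2.90 and a q-value of 0.0116. The pair did not overlap, and covered 0.801% and 0.947% of the window. The other 4 samples had no peak in the window, with the nearest one 25289 bp upstream in WT replicate 1, 67707 bp in 231K replicate 1, 68741 bp in 232P replicate 1 and 25393 bp in 232P replicate 2. Both samples with a peak were replicate 2 of their genotype. A peak in these 2 samples and in no other was found in 60 of all 20033 protein-coding genes (0.3%). Of all genes, 2406 had a peak in some but not all samples. Neither SLC18A2 peak remained when -log10 q of at least 5 was asked for. Within its own list, the WT peak was above 61.1% of peaks in -log10 q and the 231K peak above 21.6%. The presence of a peak did not separate WT from Tau-KO.

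SLC6A3, the dopamine transporter gene, was the marked member. It lies on the reverse strand of chromosome 5 (chr5:1392794-1445440) with 15 exons, and its window with the flanks measured 62647 bp. The share of the window covered by peaks was 33.5% and 21.1% in WT, 19.1% and 23.2% in 231K, and 27.9% and 10.5% in 232P (replicates 1 and 2). The highest cover was in WT replicate 1 and the lowest in 232P replicate 2, and the genotypes overlapped. The mean over the 6 samples was 22.6% ± 7.83 (SD, n = 6), which was higher than in 88.8% of all genes. Among the 3939 genes with a peak in all 6 samples it was unremarkable, since 43.4% of them had less cover and their median was 28.2%.

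The cover of SLC6A3 was made of many separate peaks. There were 31 and 18 peaks in WT, 21 and 15 in 231K, and 28 and 11 in 232P. The widest peak measured 3002 and 5896 bp in WT, 1691 and 5756 bp in 231K, and 1568 and 1315 bp in 232P. Peaks that also met a q-value under 0.05 numbered 28, 18, 18, 15, 26 and 9 in the same order, and those with -log10 q of at least 5 numbered 7, 3, 3, 5, 4 and 0. Most peaks were therefore modest, and 232P replicate 2 held none of the strong ones.

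The strongest peak of SLC6A3 was not at the same place in each sample. Its fold enrichment was 6.35 and 6.73 in WT, 9.02 and 7.50 in 231K, and 8.45 and 4.86 in 232P, from 10 to 21 reads at the summit. The summit was upstream of the start site, in a peak reaching into the window or lying in it, in WT replicate 1 (-5468 bp, equalled in fold enrichment, q-value and reads by a peak in intron 3, 6732 bp past the start), WT replicate 2 (-4096 bp) and 231K replicate 2 (-3770 bp). In 231K replicate 1 it was in intron 1, 1682 bp past the start, in 232P replicate 2 in intron 3, 4794 bp past the start, and in 232P replicate 1 in the last exon, 51010 bp past the start.

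The cover also varied along the gene. The 5 kb upstream of the gene were covered to between 30.0% and 61.2% across the samples, with a median of 50.2%. The first 20 kb of the gene were covered to 59.8% and 39.0% in WT, 32.5% and 42.0% in 231K, and 39.4% and 11.1% in 232P. The middle of the gene, 22647 bp, was covered to a median of 4.00%, from none in 232P replicate 2 to 17.8% in 232P replicate 1. The last 10 kb were covered to between 11.0% and 32.2%. In each of the 6 samples the middle of the gene was covered less than either end, while the amounts varied. The 5 kb downstream of the gene were covered to 11.7% and none in WT, 14.6% and 22.4% in 231K, and 17.2% and 24.7% in 232P. In 232P the order differed from the other samples, since replicate 1 had more cover in the last 10 kb than upstream, and replicate 2 more downstream than in the first 20 kb.

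**Figure D2:**
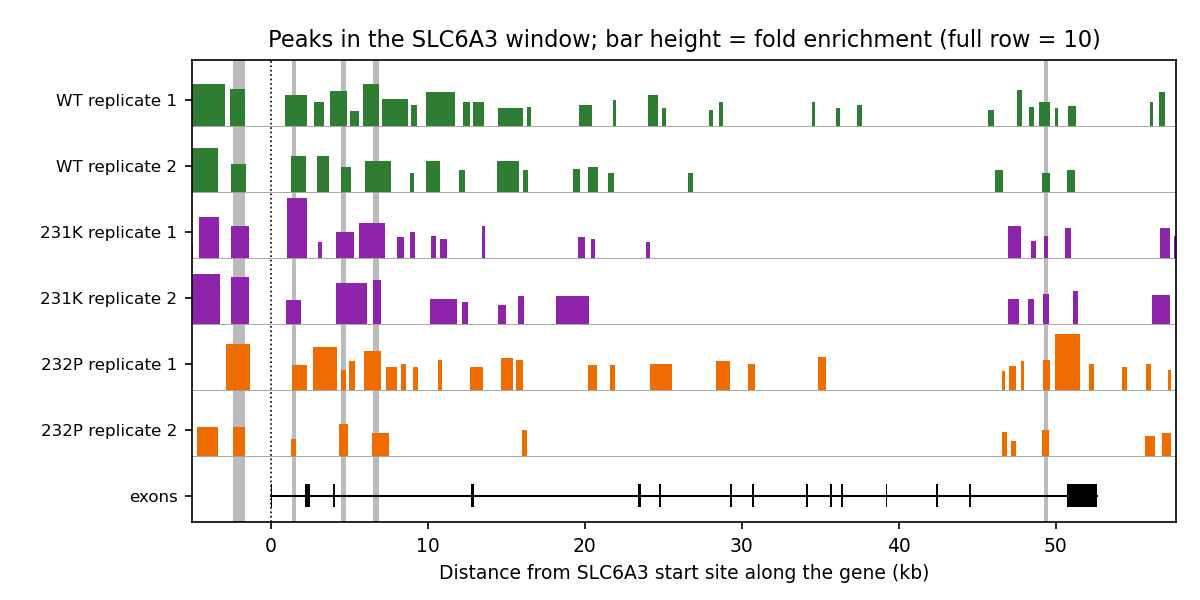
Peaks in the SLC6A3 window of each of the 6 samples against the distance from the start site in kb, with bar height giving the fold enrichment (a full row stands for 10), exons in black and the stretches covered in all 6 samples as grey bands. Peaks crowd upstream and in the first 20 kb, thin out between 30 and 45 kb and return near the end, and none lies over the start site at 0.

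The samples shared few bases of the SLC6A3 window. No sample had a peak over 29788 bp (47.5% of the window), and all 6 samples had one over 2027 bp (3.24%). These shared bases formed 5 stretches. The widest, 722 bp at chr5:1447091-1447812, was upstream of the start site, and the others included 390 bp (chr5:1438520-1438909), 323 bp (chr5:1440655-1440977) and the 294 bp near the gene end printed above. As a description of how alike the samples were, the share of bases covered in both over those covered in either was 0.408 for the WT replicates, 0.475 for 231K and 0.172 for 232P. It averaged 0.333 over the 6 pairs with the same replicate number and 0.309 over the 6 remaining pairs, so the 232P replicates were less alike than any pair of different genotypes, which ranged from 0.202 to 0.415, and the 231K replicates more alike.

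No peak covered the start site of SLC6A3 in any sample. The gap between the nearest peak upstream and the nearest one downstream of it measured 2549 and 2860 bp in WT, 2434 and 2343 bp in 231K, and 2679 and 2936 bp in 232P. The peaks that bordered it had a fold enrichment of 4.20 to 7.09 upstream and 2.65 to 9.02 downstream. The gap that all 6 samples shared, chr5:1444542-1446773, was 2232 bp long and held 231 CG dinucleotides, or 10.3 per 100 bases, with a GC content of 71.5%. The stretches of the window covered in all 6 samples held 1.28 CG dinucleotides per 100 bases at a GC content of 49.2%, against 3.27 and 58.5% in the bases covered in no sample. A peak came within 1 kb of an annotated start site of the gene in WT replicate 1, 231K replicate 2 and 232P replicate 1.

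A peak-free start site was usual for CG-rich genes in these lists. Of the 452 genes that had a peak in the window in all 6 samples and at least 100 CG dinucleotides in the 1 kb around the start site, 451 (99.8%) had no peak over the start base in any sample, as compared with 32.2% of the 2190 such genes with under 50. Over all protein-coding genes, a peak covered the start base in at least 1 sample in 22.9% of the 6970 genes with under 50 CG dinucleotides, in 1.20% of the 9278 with at least 50 but under 100 and in 0.0264% of the 3783 with 100 or more. SLC6A3 held 116, SLC18A2 105, PNMT 85, SLC6A2 83, TH 37, DBH 32, DDC 6 and SLC18A1 5, where the median of all genes was 66. For SLC18A2, PNMT and SLC6A2, the lack of a peak at the start site is therefore read against a class of genes in which such a peak was rarely called. The part of base composition in these gaps was not tested.

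**Figure D3:**
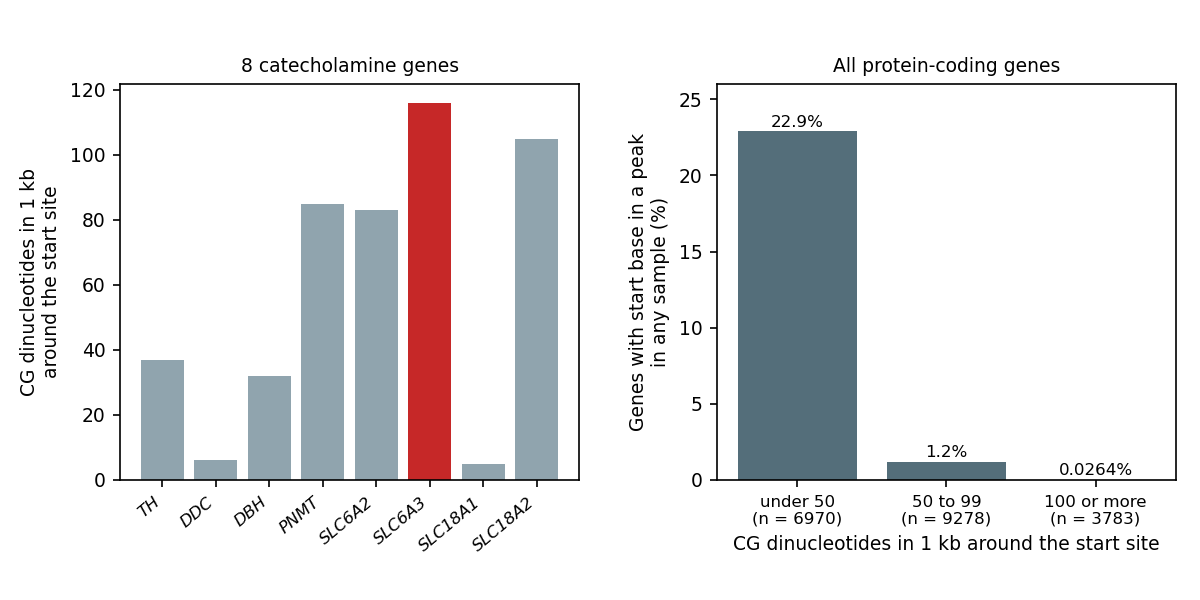
Left, number of CG dinucleotides in the 1 kb around the start site of the 8 genes, with SLC6A3 in red (116); right, percent of all protein-coding genes with the start base inside a peak of any sample, by the same number (n, genes in each class). The share falls from 22.9% below 50 CG dinucleotides to 0.0264% at 100 or more.

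The question of the study's chromatin immunoprecipitation experiment was whether H3K27me3 marks differ between Tau-KO and Tau-expressing cells. With limma on normalized counts for single marks, the paper reports that a small part of them differed in each Tau-KO line, most being reduced. The cover of gene windows by peaks used here is a different measure and does not test those marks. MAPT, which encodes Tau and is the targeted gene, had no peak in its window in any sample, with the nearest one 101501 to 108579 bp upstream, so its peaks give no check of the genotype labels. At SLC6A3, the mean cover was 27.3% ± 8.74 in WT (SD, n = 2), 21.2% ± 2.88 in 231K (n = 2) and 19.2% ± 12.3 in 232P (n = 2). The 4 Tau-KO samples averaged 20.2% ± 7.37, which was 7.10 percentage points below WT. This difference was within the spread between replicates (exact permutation test over samples, two-sided p = 0.4, where 4 against 2 samples cannot go below 0.0667). The cover here was not scaled between the lists, and with the scaling described below the log2 difference for Tau-KO was 0.04 ± 0.78 (SE). Without scaling, the direction of the difference in points held, but its size depended on the lists and on single samples. It was -3.01 points with lists of equal length and -2.54 at -log10 q of at least 5. With samples left out, it ranged from -0.926 without WT replicate 1 to -13.3 without WT replicate 2. Within replicate 1, the cover of 231K was 0.572 times and that of 232P 0.834 times that of WT, and within replicate 2 the ratios were 1.10 and 0.499, so 232P lay below WT in both replicates and 231K in replicate 1 alone. With genotype labels exchanged within a replicate number only, the same exact permutation test gave p = 0.333 (two-sided, where 0.111 is the smallest possible).

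The highest fold enrichment in the SLC6A3 window was 6.54 ± 0.264 in WT (SD, n = 2), 8.26 ± 1.07 in 231K (n = 2) and 6.65 ± 2.54 in 232P (n = 2). Both 231K samples lay above both WT samples, which was the case for 18.4% of the 3939 genes with a peak in all 6 samples. The 4 Tau-KO samples averaged 7.46 ± 1.84, and the difference from WT, 0.918, was within the spread between replicates (exact permutation test, two-sided p = 0.533).

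**Figure D4:**
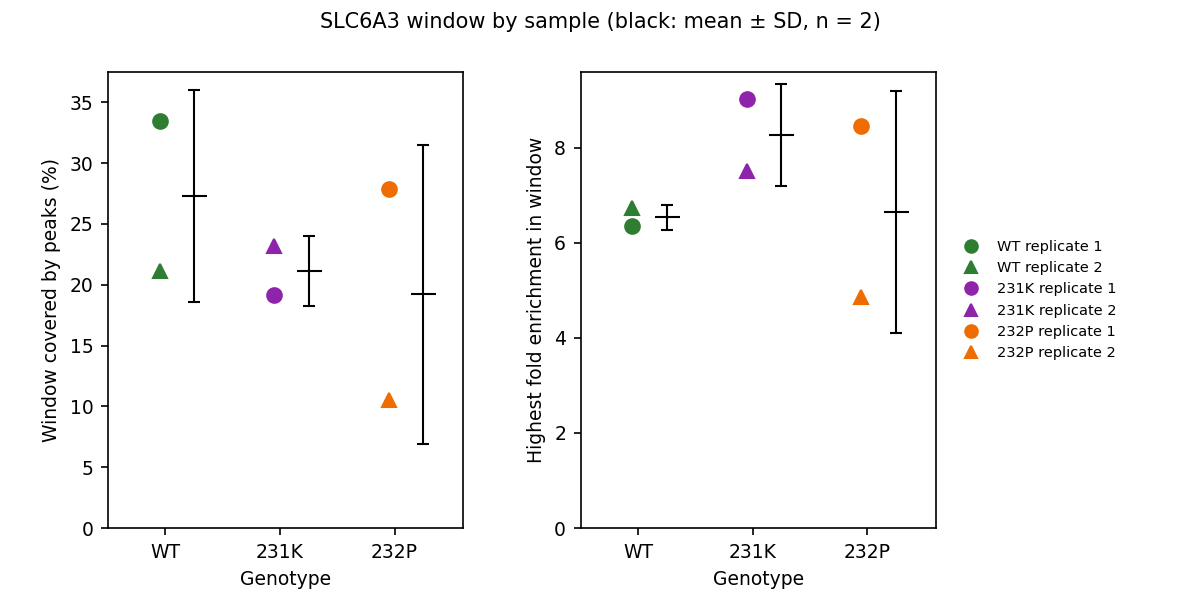
Percent of the SLC6A3 window covered by peaks (left) and highest fold enrichment in it (right) for each sample, by genotype, with the mean ± SD of the 2 replicates in black. The genotypes overlap in cover, from 10.5% to 33.5%, while both 231K samples lie above both WT samples in fold enrichment.

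The order of the samples at SLC6A3 was unlike that of most marked genes. 232P replicate 1, the shortest list, had the lowest cover of the 6 samples in 82.9% of the genes with a peak in all of them, but only WT replicate 1 was above it at SLC6A3, and it was among the 2 highest in 2.89% of these genes. WT replicate 2 and 231K replicate 2 were among the 2 highest in 77.8% and 83.2% of them, but not at SLC6A3. The genes whose cover over the 6 samples was most like that of SLC6A3, by Euclidean distance in percentage points, were PDZD4 (10.5) and TAFA5 (11.4), with a mean cover of 21.8% and 18.5%.

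The comparison across all genes used the cover of each window, scaled for the overall cover of each list and fitted with limma over the 5598 genes with a peak in at least 2 samples. SLC6A3 and SLC18A2 were the members that entered it. At an adjusted p under 0.05, limma called 0 genes (0% of those tested) for Tau-KO against WT, for 231K against WT and for 232P against WT, with 190, 125 and 318 genes at an unadjusted p under 0.05. For SLC6A3, the log2 difference on the scale of scaled cover plus 1 percentage point was 0.04 ± 0.78 (SE; limma, adjusted p = 0.999) for Tau-KO, -0.29 ± 0.90 (adjusted p = 1) for 231K and 0.37 ± 0.90 (adjusted p = 0.918) for 232P. Without scaling the values were -0.46, -0.32 and -0.60, where the median of all genes moved to -0.42, -0.03 and -0.81, so the direction for Tau-KO and 232P depended on the scaling. The scale factor of 232P replicate 1 was 0.397, against 1.03 to 1.52 for the other lists. Without 232P replicate 2, 232P was then represented by that list alone, and SLC6A3 came out higher than in WT by a log2 difference of 1.67 (limma, adjusted p = 0.0452). That fit called 1038 of 5495 genes (18.9%), of which 445 (8.1%) were higher in 232P. Without 232P replicate 1 the value was -0.99 for 232P and -0.64 for Tau-KO.

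For SLC18A2, the log2 difference in cover was -0.15 for Tau-KO, 0.03 for 231K and -0.32 for 232P (limma, adjusted p = 0.999, 1 and 0.833). The highest fold enrichment was fitted over the 3939 genes with a peak in all 6 samples, where limma again called 0 genes (0%) in each comparison, with 107, 104 and 232 at an unadjusted p under 0.05. SLC6A3 gave log2 differences of 0.15 ± 0.22 (SE) for Tau-KO, 0.33 ± 0.25 for 231K and -0.03 ± 0.25 for 232P (limma, adjusted p = 1.00, 0.999 and 0.978). The count by overlap of the groups alone used cover that was not scaled between the lists. Both WT samples lay above all 4 Tau-KO samples in 549 of the 5598 genes (9.81%) and below them in 9 (0.161%). Of the 2 members tested, 0 did either. The lists differed in total cover, from 70.3 Mb in 232P replicate 1 to 290.2 Mb in 231K replicate 2. The part of this in the counts was not tested. The gene counts depended on the lists, with 321 above and 25 below for lists of equal length. At -log10 q of at least 5 they were 201 and 2, and with 1 sample left out they ranged from 611 to 2120 and from 13 to 106. Compared within each replicate number, again without scaling, WT lay above both lines in 1328 genes (23.7%) and below both in 29 (0.518%). Either was again the case for 0 of the 2 members. A missed threshold does not show that the cover of SLC6A3 was alike in WT and Tau-KO.

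The genes next to the members were compared for position. INS, beside TH, had no peak, and IGF2 had a mean cover of 7.48%. GRB10, 24.7 kb from DDC, was covered to 41.3%, while FIGNL1 on its other side had no peak. On either side of SLC6A3, CLPTM1L had no peak and LPCAT1, 11.0 kb away, was covered to 2.48%, so the next gene upstream of SLC6A3 was covered less than SLC6A3 itself. Beyond CLPTM1L, TERT, 97.7 kb from SLC6A3, had peaks in all 6 samples and a mean cover of 11.7% (2.56% to 20.9%), and SLC6A18 had peaks in 5 samples and a mean cover of 11.2%. Near SLC18A2, KCNK18 was covered to 5.17% in 1 sample and had no peak in the others, whereas the homeobox genes VAX1 and EMX2, 103 and 263 kb away, were covered to 40.6% and 55.5%. The neighbours of DBH and PNMT listed had none.

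The wider catecholamine pathway was examined as 26 other genes. Of these, 8 (30.8%) had a peak in the window in all 6 samples, 14 (53.8%) had none in any and 4 had one in some, against 19.7% and 68.3% of all genes for the first pair of classes. The 5 genes that make or recycle tetrahydrobiopterin, the cofactor of TH (GCH1, PTS, SPR, QDPR and PCBD1), were all free, as were the 4 genes of vesicle cargo and electron supply (CHGA, CHGB, SCG2 and CYB561). The monoamine oxidase genes MAOA and MAOB, which encode breakdown enzymes and lie on the X chromosome, were covered in all 6 samples, to a mean of 8.13% and 8.78%. Of the 2 transporters of extraneuronal uptake, SLC22A3 was covered to 45.8% ± 15.1 (SD, n = 6) and SLC29A4 was free.

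Several receptor genes were widely covered. The dopamine receptor gene DRD1 was covered to 66.2% and 76.0% in WT, 59.5% and 83.5% in 231K, and 26.7% and 57.6% in 232P, with a peak within 1 kb of its start site in each sample. DRD5 was covered in all 6 samples too, DRD2 in WT replicate 2 alone, and DRD3 and DRD4 in none. Among 8 adrenergic receptors, ADRA1B and ADRA1D had a peak within 1 kb of the start site in all 6 samples, with a mean cover of 68.7% ± 20.7 and 63.3% ± 11.9 (SD, n = 6), and ADRB1 was covered in all 6 samples to 31.7%. ADRA2B and ADRA2C had no peak, and ADRA1A, ADRA2A and ADRB3 had one in some samples. In this respect SLC6A3, at 22.6%, was covered less than DRD1, ADRA1B and ADRA1D and more than MAOA and MAOB. 232P replicate 1 was the lowest of the 6 samples at DRD1, ADRA1B and ADRA1D, unlike at SLC6A3.

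**Figure D5:**
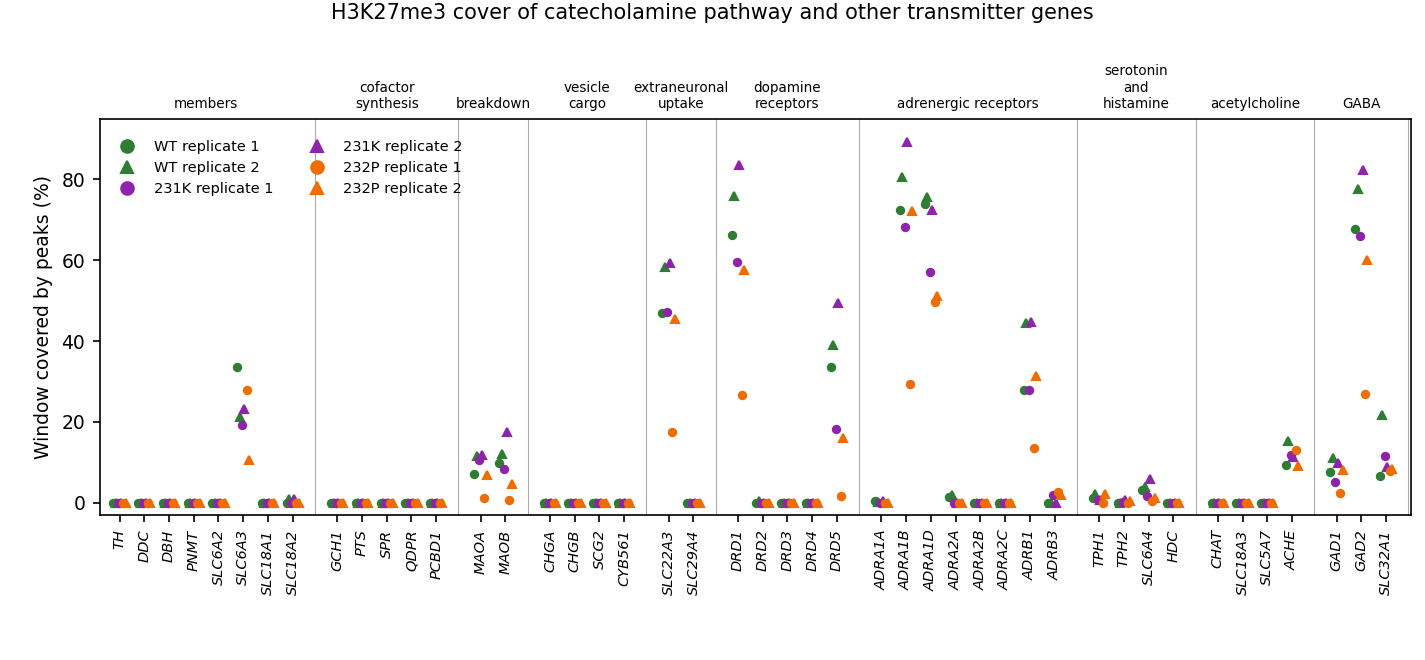
Percent of the gene window covered by H3K27me3 peaks for the 8 catecholamine genes (members), 26 other genes of the pathway and 11 genes of other transmitter systems, with 1 point for each sample. Synthesis enzyme, cofactor and cargo genes lie at 0, whereas SLC6A3, SLC22A3, DRD1, ADRA1B, ADRA1D and GAD2 are covered in all 6 samples.

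Genes that make or carry other transmitters served as a comparison. Of the GABA system, GAD1, GAD2 and SLC32A1 had a peak in all 6 samples, and GAD1 and GAD2 had one within 1 kb of a start site in all 6, with a mean cover of 7.35% and 63.4%. GAD2 makes GABA from glutamate. Of the 4 cholinergic genes, ACHE, which encodes acetylcholinesterase, was covered to 11.7%, and the synthesis and transport genes CHAT, SLC18A3 and SLC5A7 were free like TH, DDC and DBH. Of the 4 genes for serotonin and histamine, the serotonin transporter gene SLC6A4 was covered in all 6 samples to 2.68%, TPH1 and TPH2 in some and HDC in none. Of the 3 sister plasma membrane transporters of monoamines, SLC6A3 was covered most, SLC6A4 little and SLC6A2 not at all.

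Markers of cell identity were checked against the label. The adrenergic neuroblastoma markers PHOX2A, HAND2, GATA2, GATA3 and ISL1 were free in all samples. That list is not given in full here, so nothing is read from these 5 about the whole set. Of the mesenchymal-state markers, PRRX1 was covered to 67.4% in all 6 samples, and TWIST1, SNAI2 and FOSL1 were free. The hepatocyte genes ALB and SERPINA1 were covered to 54.9% and 78.2% and the muscle genes MYF5 and MYOD1 to 75.3% and 7.41%, whereas APOA1 and the melanocyte and Schwann cell genes SOX10, MITF and PMEL were free. Of the housekeeping genes, ACTB and GAPDH were free, and HPRT1, which lies on the X chromosome, was covered to 25.8%.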

How the data were processed

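Chromatin was precipitated with an H3K27me3 antibody in 6 samples, which the authors trimmed, aligned to hg38 with BWA and passed to MACS (version 2). Their methods name the broad setting, whereas each sample's deposited list is in the 10-column narrow format and holds more peaks than those methods state, so the lists may not be the calls described there. The threshold and the use of the 6 input samples, which were not analysed here, are not given in the sources used here. The deposited values used were fold enrichment (a ratio of summit depth to local background, with 1 added to each) and -log10 q-value. The deposited score is a multiple of the latter and, like -log10 p, served in checks and in ranking peaks. Reads at a summit were recovered from fold enrichment and -log10 p, and all peaks gave whole reads within 0.001 of -log10 p.

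The members, gene lists and limits were chosen with earlier results of these data known. The rule for named genes was the 8 members, MAPT, and, of the lists, genes with a start-site peak in all 6 samples or called. Further list genes, the sequences shown and the CG limits of 50 and 100 were chosen after their values were seen. Some genes of these lists and a sequence are not reported here, and the lists were counted without them. A peak counted when it overlapped the gene with 5 kb each side, or a start site with 1 kb each side. Cover was tested with limma 3.58.1 (R 4.3.3) on log2(scaled percent + 1) with genotype as the only term and Benjamini-Hochberg adjustment over all genes tested, and the highest fold enrichment on log2 without scaling. Single values used an exact permutation test (scipy 1.17.1). Read depth is unknown, since the lists hold no totals, and the summit heights limit the precision. Alternatives were the scaling, pseudocount, thresholds, windows, list length, a replicate block and leaving out each sample.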

Additional observations from a re-analysis of the deposited data

How the results depend on the processing

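The cover and fold enrichment fits called no gene under any setting that kept all 6 samples. Of the values recomputed under those settings, 163 stayed the same, 6 reversed and 9 moved. A log2 difference was the same when it kept its direction and side of the threshold. The unscaled difference of SLC6A3 was the same when it kept its direction, and a count when it was equal or of similar size. The 163 include log2 differences that the replicate block cannot change and that the filter of a peak in at least 1 sample left as they were. Their number is therefore not a measure of stability. The reversed values were log2 differences of SLC6A3, none of them past the threshold. In cover, they were -0.46 for Tau-KO and -0.60 for 232P without scaling, -0.057 for Tau-KO and -0.056 for 232P at -log10 q of at least 5, and -0.19 for Tau-KO with 1 kb each side of the gene. In fold enrichment, scaling by the median gave 0.11 for 232P. That scaling also moved the median of all genes from -0.16 to -0.021, so the reversal is not particular to SLC6A3. At -log10 q of at least 5, 0 members had a peak in all samples and 0 had one within 1 kb of a start site, and with 2.5 kb around the start 2 members had one. In unscaled cover, both WT samples lay above all Tau-KO samples in 201 genes at -log10 q of at least 5. With lists of equal length the number was 321, and genes with both below numbered 2 and 25 in the same order. The cause of these changes was not tested. The fit without a filter on low values could not be fitted, and one with a peak in at least 1 sample, chosen after seeing the data, called 0 genes.

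Leaving out each sample in turn gave between 0 and 26 genes called in cover for Tau-KO and between 0 and 1038 for 232P, with 0 to 1 members called, the highest of each without 232P replicate 2. In fold enrichment it gave 0 to 1 genes for Tau-KO and 0 to 2 for 232P. The log2 difference of SLC6A3 in cover ranged from -0.64 to 0.69 for Tau-KO, from -0.78 to 0.18 for 231K and from -0.99 to 1.67 for 232P, and in fold enrichment from -0.049 to 0.35 for Tau-KO and from -0.43 to 0.37 for 232P. That of SLC18A2 in cover ranged from -0.46 to 0.029 for Tau-KO, from -0.29 to 0.38 for 231K and from -0.63 to -0.32 for 232P, over 4 of the 6 fits. Without WT replicate 2 or 231K replicate 2, the samples that held its peaks, SLC18A2 had a peak in fewer than 2 samples and was not tested. In fold enrichment, SLC6A3 ranged from 0.20 to 0.46 for 231K. The unscaled difference of SLC6A3 ranged from -13.3 to -0.926 percentage points. Members whose groups did not overlap numbered 0 to 1, the 1 being SLC6A3 without WT replicate 2. In that leave-out, where 5436 genes were tested, 848 genes had WT above and 81 had WT below, so SLC6A3 was not alone. Over all leave-outs, 611 to 2120 genes had WT above and 13 to 106 had WT below, all in unscaled cover. Where an arm was left with 1 sample, that sample was assumed to vary like the other groups.

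Deviations of samples with the same replicate number correlated at 0.27, 0.35 and 0.23 over 5598 genes for the 3 pairs of genotypes. No label says what a number marks, so the samples were not taken as pairs, but the smallest peak width also split by number and the number was tried as a batch. With the replicate block, limma called 0 genes in cover in each comparison, with 237, 140 and 507 at an unadjusted p under 0.05, where SLC6A3 had an adjusted p of 0.997 for Tau-KO. With 1 sample of each genotype per number, the block leaves every log2 difference as it was (0.04 for SLC6A3) and can change only its error, so the unmoved values say nothing about stability. Compared within each replicate number in unscaled cover, a choice made after seeing the data, WT lay above both lines in 1328 genes and below in 29. The lists limit all of this, since each summit rests on few reads and cover in a window follows the length and width of the peaks called.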
